A study of Rattus norvegicus with 2 samples.

Results

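The genes described here are the 35 rat genes chosen by name for glutathione synthesis and recycling, the glutathione transferases, the glutathione peroxidases, the glutaredoxin and glyoxalase enzymes and the first enzymes of glutathione breakdown. They were found on the arrays by matching each probe's RefSeq transcript to its gene, and the list was drawn up by gene function with earlier results of these data known. Of the 35 genes, 32 had a probe that could be named here. Gsta5, Gstt3 and Gstz1 have none named here. For 2 further genes, Gsta2 and Gsto1, each probe lay on a spot that the scanner software marked as non-uniform on 1 array, which left 30 genes, of 13667 in all with an unmarked named probe. Of these 30, 25 were well above background on both arrays and are called measured here, 3 were so only on the senecionine array (Gpx2, Ggt1 and Ggt5), and 2 on neither array (Gclm and Slc7a11).

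The series asked how liver transcripts of Sprague Dawley rats differ 36 h after senecionine, a pyrrolizidine alkaloid, given by the intragastric route at 35 mg/kg. Control rats received sodium chloride. Liver of 3 animals was pooled for each group and each pool was hybridised to 1 one-colour (Cy3) Agilent array, so there are no replicates, no test was possible, and each difference is between 2 pools. The sources used here give no sex, age or genotype beyond the strain.

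Glutathione is a tripeptide of glutamate, cysteine and glycine that liver makes in large amounts. Glutathione transferases join it to reactive, electron-seeking compounds, peroxidases use it to reduce peroxides, and a reductase restores the oxidised form with NADPH. Pyrrolizidine alkaloids are converted in hepatocytes to reactive pyrroles, for which glutathione is a known trapping partner, and several genes of the system are known targets of the transcription factor NRF2, which binds the antioxidant response element.

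The promoter sequences of 4 neighbouring mu-class transferase genes are shown because these genes lie side by side on chromosome 2 and yet stood at both ends of the members' range, and that of Gstp1 because it holds the antioxidant response element core. Each is the 250 bases before the RefSeq gene start (assembly GRCr8), written 5′ to 3′ on the gene's strand, with matches to the core TGACNNNGC on either strand in capitals.
Gstm1 (chr2:198343384-198343633, minus strand): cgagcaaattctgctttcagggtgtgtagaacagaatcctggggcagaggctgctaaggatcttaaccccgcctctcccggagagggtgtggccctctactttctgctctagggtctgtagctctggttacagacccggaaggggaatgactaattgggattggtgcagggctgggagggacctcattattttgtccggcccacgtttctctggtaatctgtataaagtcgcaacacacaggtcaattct
Gstm2 (chr2:198316918-198317167, minus strand): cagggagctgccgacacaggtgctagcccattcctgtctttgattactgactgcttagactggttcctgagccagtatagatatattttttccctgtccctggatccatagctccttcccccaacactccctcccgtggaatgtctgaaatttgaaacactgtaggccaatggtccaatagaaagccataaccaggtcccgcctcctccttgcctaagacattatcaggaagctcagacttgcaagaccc
Gstm3 (chr2:198300668-198300917, minus strand): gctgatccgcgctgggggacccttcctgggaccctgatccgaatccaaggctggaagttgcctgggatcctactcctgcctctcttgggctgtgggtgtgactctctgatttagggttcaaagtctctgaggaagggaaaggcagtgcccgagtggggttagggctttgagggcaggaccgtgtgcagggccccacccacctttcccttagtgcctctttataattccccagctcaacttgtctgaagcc
Gstm7 (chr2:198260320-198260569, minus strand): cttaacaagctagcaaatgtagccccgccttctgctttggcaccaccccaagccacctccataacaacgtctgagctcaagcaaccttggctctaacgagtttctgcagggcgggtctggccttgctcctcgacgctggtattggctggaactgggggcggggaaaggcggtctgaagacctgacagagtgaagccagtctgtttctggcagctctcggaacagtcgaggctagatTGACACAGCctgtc
Gstp1 (chr1:210769706-210769955, minus strand): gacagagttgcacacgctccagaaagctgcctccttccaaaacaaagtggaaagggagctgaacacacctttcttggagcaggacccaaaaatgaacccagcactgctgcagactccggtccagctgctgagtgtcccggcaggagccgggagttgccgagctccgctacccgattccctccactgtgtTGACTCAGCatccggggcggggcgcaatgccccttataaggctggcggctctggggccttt

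A window was matched for 29 of the 35 genes, and the core was present in 7 of their 32 windows (21.9%), against 10.1% of all 33469 promoter windows of this length. The 7 genes were Gclm, Gsta3, Gstm5, Gstm7, Gstp1, Gstz1 and Gpx2. In the sequences above, Gstm7 holds TGACACAGC, which begins 14 bases before the gene start, and Gstp1 holds TGACTCAGC, which begins 61 bases before it. The windows of Gstm1, Gstm2 and Gstm3 hold no such letters. A match describes the letters and does not show a bound site. Gsr, Gstt1, Gstt2, Mgst2, Ggt5 and Oplah have no window here.

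Signals are given as the processed signal of the spot in intensity units, before the arrays were scaled to each other. Ratios are log2 of senecionine over control after each array's 75th percentile (101 units on the control array, 134 on the senecionine array) was set equal, which takes 0.41 off each unscaled log2 ratio. The error after ± is the scanner software's error of each spot, propagated to the ratio. It is the software's estimate for single spots and does not cover the spread between animals, pools or probes of a gene. For members measured on both arrays it was 0.20 at the lowest and at the median, and at most 0.31. Probes of 1 gene could differ by more, as for Gstp1 (-1.01 and -0.25) and Gstt2 (-1.67 and -0.77). Those of Mgst3 lay close (-2.08 and -2.03). A gene is called higher or lower here where the pools differed at least 2-fold. Of 43379 non-control spots, those well above background made up 44.4% for the control and 64.1% for the senecionine pool. Detection by the senecionine array alone held for 19.1% of the 13667 genes and detection by the control array alone for 1.24%.

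The labelled tissue was checked against marker lists. All 7 hepatocyte markers with an unmarked probe (of 9 listed) were well above background on both arrays. Their summed signals were 260900 units on the control and 179500 on the senecionine array. Of the 7, 6 were at least 2-fold lower after senecionine (2 to 6 over the scalings tried), among them Alb at -1.14. The median log2 ratio of the 7 was -1.14. Over all 7803 measured genes, 17.7% were at least 2-fold lower and 11.2% at least 2-fold higher. The control array also carried brain transcripts: the summed signal of 14 brain markers was 7554 units there against 652 on the senecionine array, of which Tubb3 gave 5620 against 373 and Mbp 1054 against 16.2. On each array 9 of the 14 were well above background. Both arrays detected 7 of them, of which 6 had signals at least 2-fold lower after senecionine and Mog lay within 2-fold. Snap25 (91.1 and 4.42 units) and Nefm (39.4 and 2.66) were detected by the control array alone. Gfap (5.19 and 13.5 units) and Syt1 (4.19 and 12.9) were detected by the senecionine array alone, and Gad1, Slc17a7 and Stmn2 by neither. The lowest signal well above background was 20.6 units on the control and 10.8 on the senecionine array. Bile duct and progenitor markers (7 with an unmarked probe) summed to 184 units against 4684, with Cftr above background on neither array. Of the 4684 units, Spp1 gave 2918 and Tnfrsf12a 1227. Neutrophil markers (7) summed to 399 against 10450. Of the 10450 units, S100a8 gave 4559 and S100a9 4412, while Elane gave 17.9 against 14.5. Macrophage markers (8) summed to 14720 against 33960, with 3 higher and 2 lower and a median log2 ratio of -0.04. Of these sums Lgals3 gave 1955 against 19510 and Clec4f 9156 against 1352. Erythrocyte markers (4) summed to 822 against 3157. Endothelial markers (5) summed to 7029 against 2362 and stellate and fibroblast markers (6) to 21360 against 17960, with 2 of these higher (Dcn at 3.56 and Des at 2.44) and 1 lower (Lrat at -2.33). Of 5 kidney markers only Aqp2 was well above background (101 against 81.9 units), and of 5 pancreas markers none was on the control array and 3 were on the senecionine array. The part of these cell types and tissues in the values below was not tested. In such bulk RNA, fewer cells of a type and less RNA per cell cannot be told apart.

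Lower signal after senecionine prevailed among the glutathione genes. Of the 25 measured genes, 10 were at least 2-fold lower (background 17.7% of all 7803 measured genes), 1 was at least 2-fold higher (background 11.2%), and 14 lay within 2-fold. The 10 lower genes were 8 transferases (Gstm2, Gstm7, Gstp1, Gstt1, Gstt2, Mgst1, Mgst2 and Mgst3), the peroxidase Gpx1 and the glyoxalase Hagh, and the higher gene was the mu-class transferase Gstm3. In either direction 44.0% of the members passed 2-fold, against 28.9% of all genes. The members' median log2 ratio was -0.65 and 20 of 25 were below 0, while all measured genes had a median of -0.14 and 56.3% below 0. With other scalings 7 to 11 members were lower and 1 was higher. The shares over all genes then ran from 9.89% to 21.3% lower and from 7.29% to 20.8% higher. The members' median stayed 0.44 to 0.54 below that of all genes, whose own median ranged from -0.26 to 0.27. Nearest to the threshold were Gstp1 (-1.01) and Mgst2 (-1.08) past it, and Gstm4 (-0.88) and Gpx4 (-0.75) short of it.

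**Figure D1:**
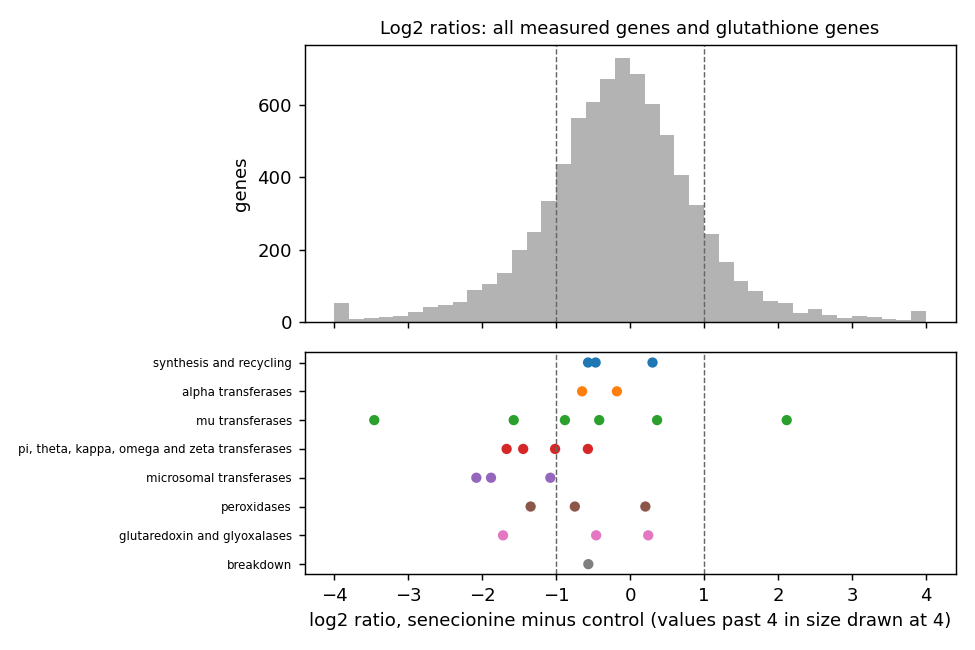
Log2 ratios (senecionine over control, horizontal axis) of all 7803 measured genes as a histogram (top, number of genes) and of the 25 measured glutathione genes by role, 1 point a gene (bottom). Dashed lines mark 2-fold, past which 10 glutathione genes lie on the lower side and 1 on the higher side.

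Glutathione synthesis and recycling genes lay within 2-fold where they were measured. Gclc encodes the catalytic subunit of glutamate-cysteine ligase, the rate-limiting enzyme of synthesis, and gave 125 units for the control pool and 111 for the senecionine pool (log2 ratio -0.57 ± 0.21). Gss, the synthetase that adds glycine, gave 397 and 650 units (0.30 ± 0.20). Gsr, the reductase, gave 170 and 163 units (-0.47 ± 0.21). Thus 1 of the 3 had the higher scaled signal in the senecionine pool and the other 2 the lower, none by 2-fold. Gclm, the modifier subunit of the ligase, gave 4.73 and 2.37 units and Slc7a11, the cystine importer, 6.88 and 2.81 units. Neither was well above background on either array, so no ratio is given for them.

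Alpha-class transferases, which are abundant in liver and handle lipid peroxidation products among other substrates, were within 2-fold where their spots were unmarked. Gsta3 gave 2345 units on the control and 1984 on the senecionine array (-0.65 ± 0.20). Gsta4, known for conjugating hydroxynonenal, gave 852 and 999 units (-0.18 ± 0.20), a ratio that turns to 0.23 without scaling. Gsta1, a near relative outside the 35 genes, gave 38700 and 32760 units (-0.65 ± 0.20). Gsta2 stood apart from these, but both of its probes were marked as non-uniform on the control array. They gave 26690 against 4847 units (log2 ratio -2.87) and 27650 against 6623 units (-2.47), which would put Gsta2 5.54-fold to 7.30-fold lower if the marked spots were accepted. Probes of near-identical transferase genes can bind each other's transcripts, so the values of single members are uncertain, and cross-binding was not tested. Symbols overlap in this class too: Gsta1 is a listed synonym of Gsta2, Gsta2 of Gsta5, and Gsta5 of Gsta3.

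The mu class held both extremes of the members. All 6 of its genes, Gstm1, Gstm2, Gstm3, Gstm4, Gstm5 and Gstm7, lie close together on chromosome 2 and were measured on both arrays. Of these, 2 were lower (background 17.7%), 1 was higher (background 11.2%) and 3 lay within 2-fold. Gstm7 gave 1460 units for the control pool and 176 for the senecionine pool. It was 11.0-fold lower (log2 ratio -3.46 ± 0.21, -3.59 to -2.90 over the scalings), the lowest ratio of the 25 genes, at the 0.8th percentile of all measured genes. Gstm2 gave 9896 and 4410 units and was 2.98-fold lower (-1.57 ± 0.20). Gstm3 ran the other way, with 183 units for the control pool and 1056 for the senecionine pool. It was 4.34-fold higher (2.12 ± 0.21, 1.90 to 2.53 over the scalings), at the 97.6th percentile of all measured genes.

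The remaining mu-class genes differed less between the pools. Gstm1 gave 17340 and 17220 units (-0.42 ± 0.20), and its ratio turns to 0.12 with quantile normalization. It turns to 0.01 with the normexp background correction, which was itself followed by quantile normalization. Gstm4 gave 433 and 312 units (-0.88 ± 0.20) and reached -1.01 only with median scaling. Gstm5, a dim gene with 29.5 and 50.4 units, had a ratio of 0.37 ± 0.31, close to its spot error. Gene names in this class have changed: Gstm4 and GstYb4 are older symbols of Gstm3, and Gstm3 is an older symbol of both Gstm5 and Gstm7. In the promoter sequences above, the core is present in Gstm7, the lowest of the class, and absent from Gstm3, the highest. Gstm5, within 2-fold, holds it as well.

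**Figure D2:**
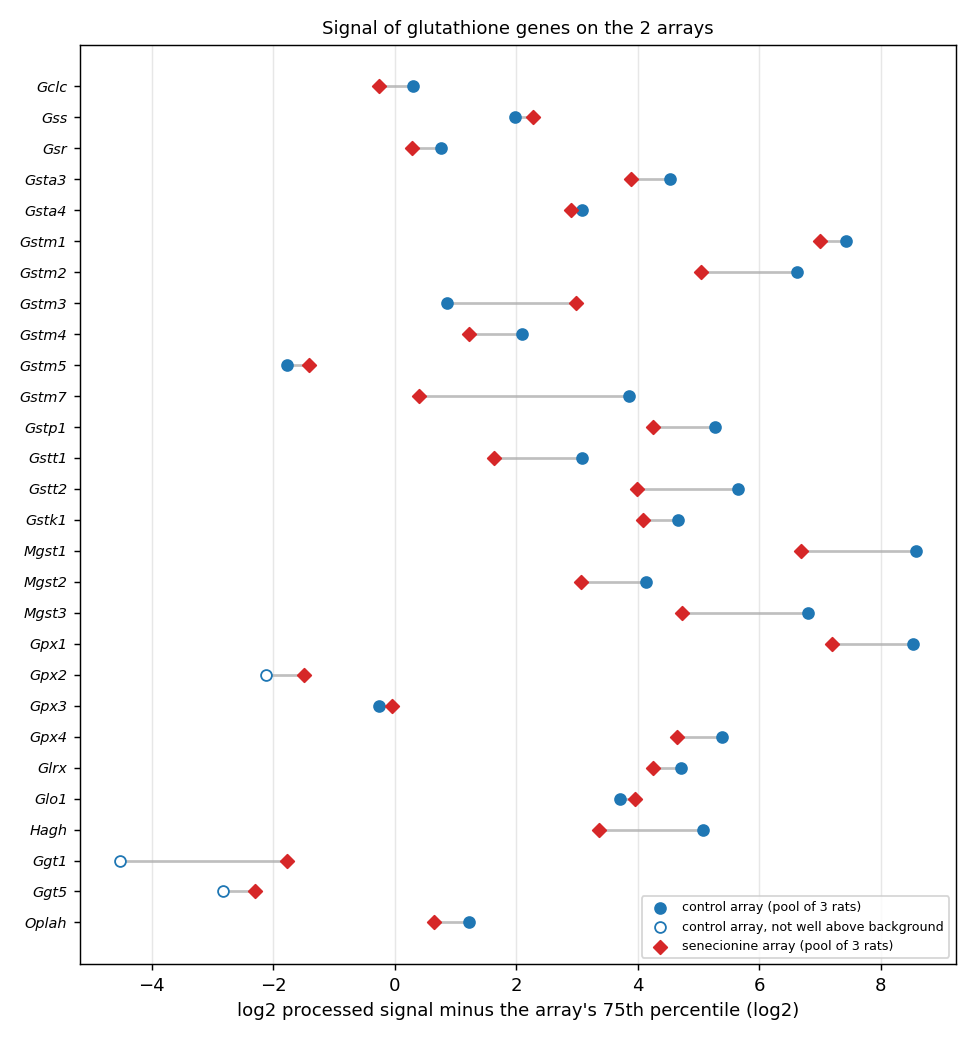
Scaled log2 signal (log2 processed signal minus the array's 75th percentile, horizontal axis) of each glutathione gene on the control array (circles) and the senecionine array (diamonds), each a pool of 3 rats, with open circles for control signals not well above background. Gstm7 and Gstm3 have the widest gaps among genes measured on both arrays, in opposite directions.

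Of the pi, theta and kappa transferases, 3 of 4 measured genes were lower (background 17.7%). Gstt2 gave 5095 units on the control and 2124 on the senecionine array and was 3.18-fold lower (-1.67 ± 0.20). Its dimmer probe gave 220 and 171 units (-0.77), on the other side of the threshold. Gstt1 gave 858 and 418 units and was 2.72-fold lower (-1.45 ± 0.20). The theta class is known for substrates such as small halogenated compounds. Gstp1, known in rat liver from bile duct cells and preneoplastic foci, gave 3889 and 2555 units and was 2.02-fold lower (-1.01 ± 0.20). That call ended with quantile normalization (-0.79), cyclic loess (-0.79), normexp (-0.73) and no scaling (-0.61), and its second probe gave 383 and 428 units (-0.25). The bile duct markers Krt19 (35.9 and 149.9 units, 1.66) and Epcam (38.8 and 299.9 units, 2.54) had log2 ratios above 1 from dim control signals. The part of bile duct cells in the Gstp1 signal was not tested. Gstk1, a transferase of mitochondria and peroxisomes, gave 2559 and 2285 units (-0.57 ± 0.20). Gsto1, which reduces dehydroascorbate, gave 1986 and 1530 units on a probe marked as non-uniform on the senecionine array (-0.78).

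All 3 microsomal transferases, membrane enzymes unrelated in sequence to the soluble classes, were lower (background 17.7%). Mgst3 gave 11280 units on the control and 3542 on the senecionine array and was 4.22-fold lower (-2.08 ± 0.20). Its second probe gave 4560 and 1478 units (-2.03), so both probes showed a like difference. Mgst1, which resides in the endoplasmic reticulum and the outer mitochondrial membrane, gave 38510 and 13870 units and was 3.68-fold lower (-1.88 ± 0.20). Mgst2, which can make leukotriene C4, gave 1778 and 1117 units and was 2.11-fold lower (-1.08 ± 0.20). Its call ended with quantile normalization (-0.95), cyclic loess (-0.92), normexp (-0.80) and no scaling (-0.67). Over soluble and microsomal transferases together, 8 of 15 measured genes were lower (background 17.7%) and 1 higher (background 11.2%). Over the scalings 6 to 9 were lower. The median of the 15 was -1.01, against -0.14 for all measured genes.

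**Figure D3:**
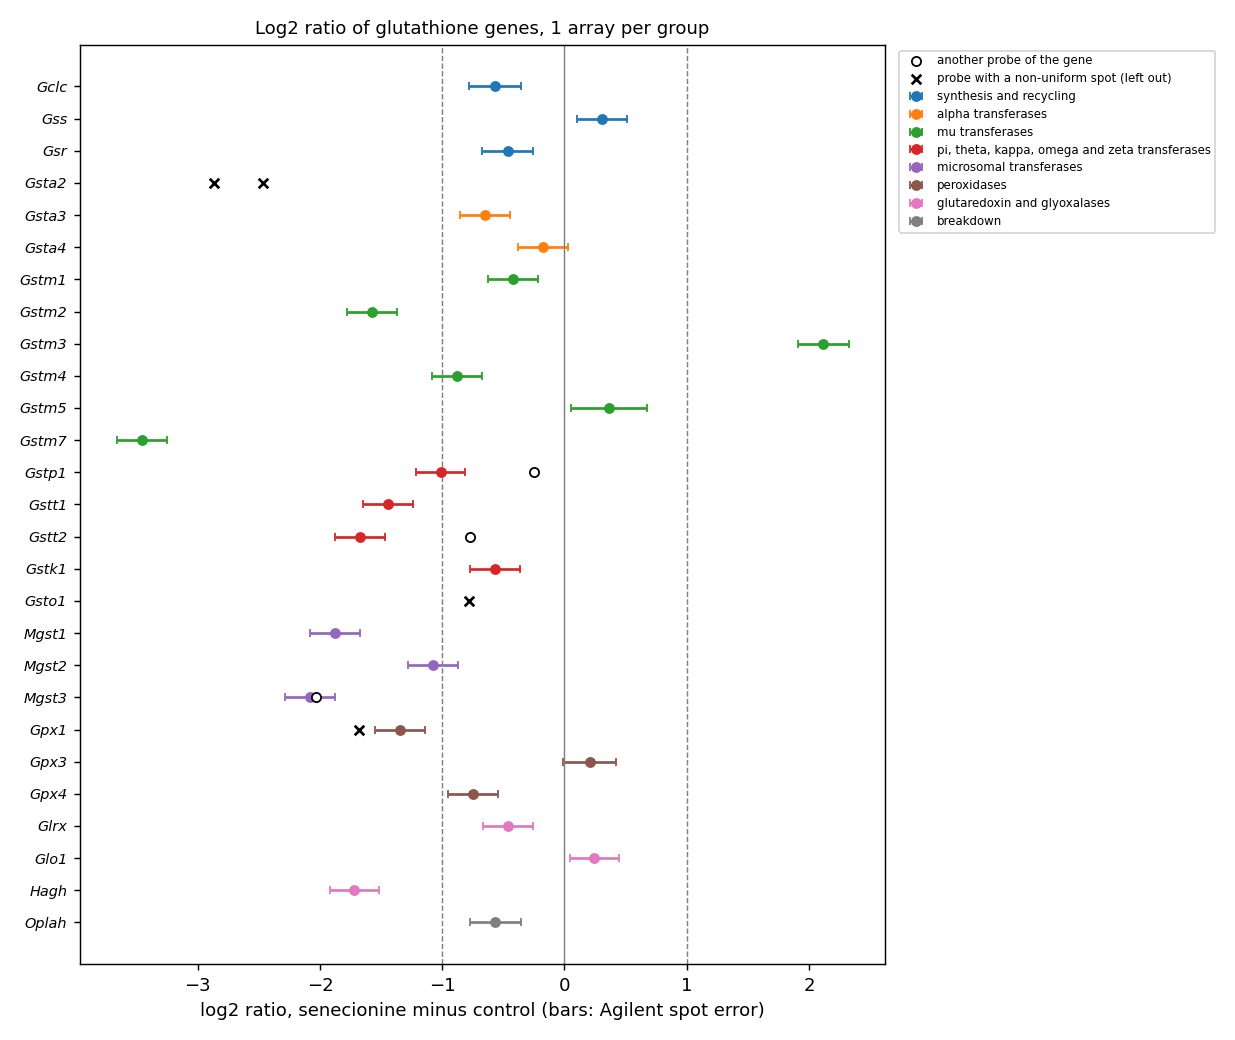
Log2 ratio (senecionine over control, horizontal axis) of each glutathione gene by role, with bars for Agilent's spot error, open points for other probes of the gene and crosses for probes left out for a non-uniform spot. The 3 microsomal transferases lie below -1, and both crosses of Gsta2 lie below -2.

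Among the peroxidases, Gpx1, the cytosolic enzyme, was 2.54-fold lower, with 37530 units on the control and 19600 on the senecionine array (-1.34 ± 0.20). This call ended with quantile normalization (-0.78), cyclic loess (-0.94), normexp (-0.82) and no scaling (-0.94). A second Gpx1 probe, marked as non-uniform on the control array, gave 25800 and 10700 units (-1.68). Gpx4, which reduces peroxidised phospholipids in membranes, gave 4247 and 3356 units (-0.75 ± 0.20), within 2-fold. Gpx3, the plasma enzyme, gave 84.8 and 129.8 units (0.21 ± 0.22), a difference within its spot error. Gpx2, known from the gut epithelium, was detected by the senecionine array alone, with 23.2 and 47.5 units and a bound of 1.54-fold higher. Such a bound divides the scaled senecionine signal by the control spot's own signal or by the lowest control signal well above background (20.6 units), whichever is greater. For Gpx2 it is the ratio of its own 2 spots (0.63 ± 0.42). A bound leaves out the spot error, and a spot brighter than that lowest signal can still fail the background flag, so bounds are approximate.

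Of the glutaredoxin and glyoxalase genes, Hagh was lower. Hagh encodes the second glyoxalase, which releases glutathione and lactate from the product of Glo1. It gave 3401 units on the control and 1372 on the senecionine array and was 3.29-fold lower (-1.72 ± 0.20). Glo1, which acts before it in methylglyoxal removal, gave 1325 and 2083 units (0.25 ± 0.20). The pair of glyoxalases thus lay on different sides of 0, and both kept their sides over the scalings. Glrx, a glutaredoxin that frees protein thiols from glutathione, gave 2637 and 2545 units (-0.46 ± 0.20).

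In glutathione breakdown, Ggt1, the cell-surface gamma-glutamyl transferase, gave 39.0 units for the senecionine pool against 4.37 for the control pool. It was not well above background in the control pool, and its approximate bound was 1.43-fold higher. Ggt5, its relative that acts on leukotriene C4, gave 14.3 and 27.1 units and was also detected on the senecionine array only, with no bound above 1. Detection by the senecionine array alone, as for these genes, held for 19.1% of all genes. Ggt1 is known as a product of bile duct and progenitor cells as well. Of 7 markers of these cells with an unmarked probe, 3 were measured and all 3 were higher (background 11.2%), or 2 of them with normexp. A further 3 were detected by the senecionine array alone. Their approximate bounds ran from 0.87-fold for Cldn7 to 106.8-fold for Spp1 (5.20 and 2918 units). Cftr was detected by neither array. The part of these cells in the Ggt1 signal was not tested. Oplah, the oxoprolinase that returns glutamate from breakdown, gave 234 and 210 units (-0.56 ± 0.21).

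In the authors' deposited table, a list of 7404 probes in which the smallest absolute log2 difference is 1.0001, 9 of the genes were listed, 2 higher and 7 lower. Over all 3516 named genes compared from that list, 57.8% were higher and 42.2% lower. The authors' deposited table gave Gstm3 at 2.22 and Ggt1 at 3.69, the latter from a control spot not well above background. On the lower side, the authors' deposited table gave Gstm7 at -3.39, Hagh at -1.47, Gstt1 at -1.36, Gstt2 at -1.35, Mgst1 at -1.27 and Gstm2 at -1.16, with the probes of Mgst3 at -1.69 and -1.73. Gstp1, Mgst2, Gpx1 and Gsta2 were not listed in the authors' deposited table. The sources used here do not say how that table was scaled. Its differences here are its senecionine column minus its control column, with the columns assigned by sample label.

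**Figure D4:**
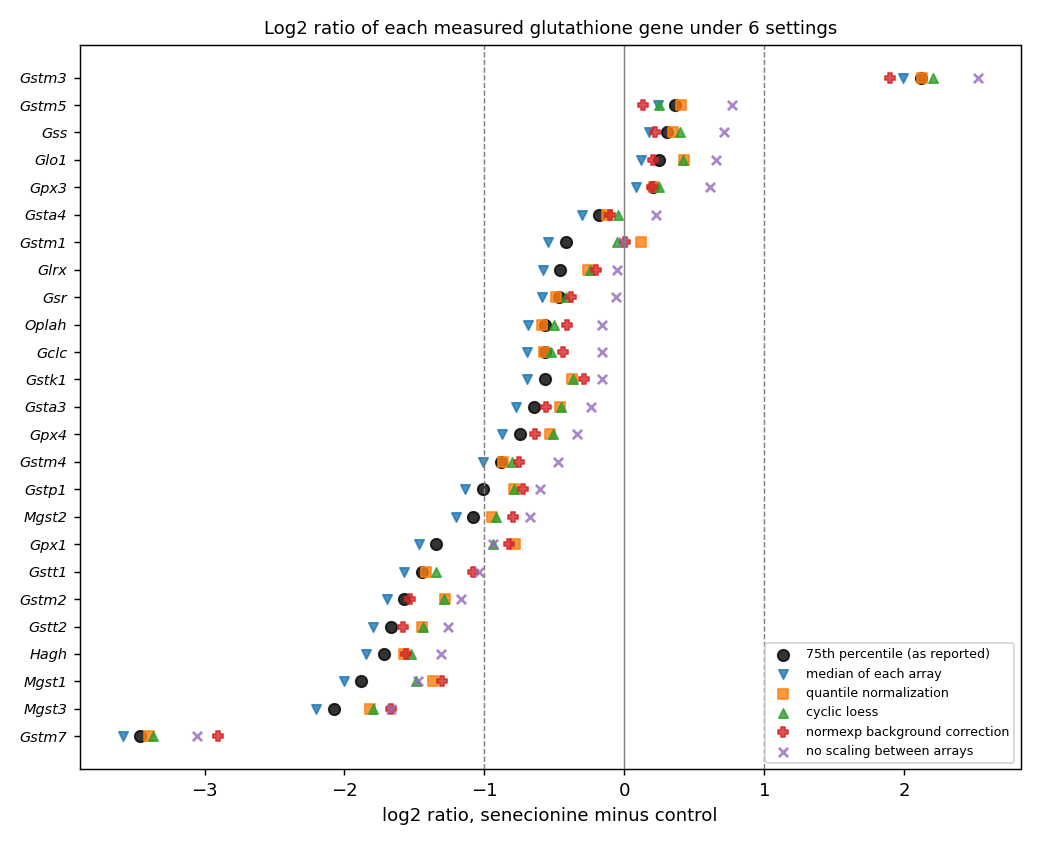
Log2 ratio (senecionine over control, horizontal axis) of each of the 25 measured glutathione genes under 6 ways to scale or correct the arrays, 1 marker a way, with dashed lines at 2-fold. Gstp1, Mgst2 and Gpx1 fall on both sides of the lower line, while the other 7 lower genes and Gstm3 stay past their lines.

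Genes of cysteine and glycine metabolism were lower throughout where measured. All 9 measured genes of this list of 13, which holds enzymes that make these amino acids and enzymes that use them, were at least 2-fold lower (background 17.7%), with a median of -1.63, against a median of -0.14 for all genes, and 6 to 9 were lower over the scalings. Cbs, which starts the transfer of sulphur from homocysteine to cysteine, gave 4483 units on the control and 626 on the senecionine array (-3.25 ± 0.20). Cth, which releases cysteine in the next step, gave 4912 and 2464 units (-1.40 ± 0.20). Gnmt, which uses glycine to take up methyl groups, gave 9001 and 1366 units (-3.13 ± 0.20). Each had the lower signal on the senecionine array, and so had Ahcy (18580 and 6669 units, -1.89 ± 0.20), which makes homocysteine, and Got1 (1122 and 446 units, -1.74 ± 0.20), an aminotransferase that also acts in cysteine breakdown. These genes are also hepatocyte products, and the hepatocyte markers given above were lower as well. Their part was not tested.

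A list of genes around the export, uptake and breakdown of glutathione, outside the 35, included genes past 2-fold on either side. It also holds amino acid transporters such as Slc1a5 and enzymes of cysteine conjugates such as Nat8, so its counts do not describe glutathione handling alone. Of 20 measured genes of this list of 25, 5 were higher (background 11.2%) and 3 lower (background 17.7%), with 4 to 7 and 2 to 4 over the scalings, and the median of -0.27 turns to 0.14 without scaling. Slc1a5, a transporter of neutral amino acids, gave 33.7 units on the control and 487 on the senecionine array (3.45 ± 0.28). Abcc3, an exporter of conjugates towards the blood, gave 24.9 and 216 units (2.71 ± 0.33). Chac1, which cleaves glutathione inside the cell, gave 138 and 710 units (1.96 ± 0.21). Slc3a2, the heavy chain partner of Slc7a11, gave 1096 and 3508 units (1.27 ± 0.20). Nat8, which acetylates cysteine conjugates in the last step of mercapturate formation, gave 596 and 139 units (-2.50 ± 0.21). Abcc2, the canalicular exporter of conjugates, gave 7629 and 6663 units (-0.60 ± 0.20), and Ggct, which acts on gamma-glutamyl amino acids, 143 and 195 units (0.04 ± 0.21). Abcc4 was detected by the senecionine array alone, at 7.15 and 22.9 units, with no bound above 1.

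Other thiol and glutathione-dependent enzymes likewise included genes past 2-fold on either side. Of 24 measured genes of this list of 31, 4 were higher and 6 lower, not far from the background of 11.2% and 17.7%, with 2 to 4 and 3 to 7 over the scalings, and the median of -0.35 turns to 0.06 without scaling. Msra, which repairs oxidised methionine, gave 192 units on the control and 69.7 on the senecionine array (-1.87 ± 0.21). Hpgds, the sigma-class transferase that makes prostaglandin D, gave 97.3 and 40.1 units (-1.68 ± 0.24), but -0.62 with normexp. Clic1, a protein with a transferase fold, gave 508 and 2060 units (1.61 ± 0.20), and the glutaredoxin Glrx3 gave 210 and 844 units (1.60 ± 0.21). Txnrd1, the cytosolic thioredoxin reductase, gave 247 and 710 units (1.12 ± 0.21), with 0.45 from its other probe and 0.99 with median scaling or normexp.

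**Figure D5:**
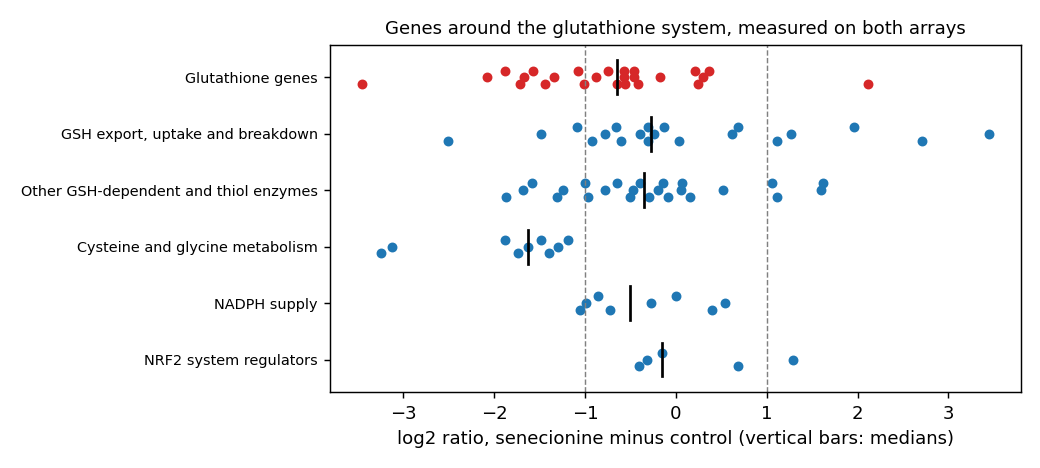
Log2 ratios (senecionine over control, horizontal axis) of genes measured on both arrays in the glutathione genes and in 5 lists around them, 1 point a gene, with vertical bars at the medians. All 9 cysteine and glycine metabolism genes lie below -1, and the other lists spread over 0.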

How the data were processed

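Total RNA from pooled liver was labelled with Cy3 and hybridised to 1 Agilent array per group. Per the file headers, the authors extracted spot intensity values with Agilent Feature Extraction 10.7.3.1 (also in the submitters' processing notes), with background subtracted. These deposited intensity values carry no scaling from array to array. A deposited log2 table of the authors covers 7404 probes, with column medians of 6.03 (control) and 6.10 (senecionine); its scaling and centring are not stated in the sources used here. All 7355 of its probes compared here differed in the same direction as here. Deposited spot flags (well above background, non-uniform, population outlier) were used as filters.

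From the log2 processed signal, the 75th percentile of the array's non-control spots was subtracted. Spots marked as non-uniform or population outliers (522 control, 497 senecionine) entered that percentile but not the ratios, and control spots entered neither. No non-control spot was saturated. Unversioned RefSeq transcript accessions matched 17250 of 40516 probes to 13667 genes (GRCr8 gene table, which also gave gene order). Probe coordinates are not printed, since the array's design follows another build. A gene's brightest probe well above background on both arrays represented it. The share of higher genes among all past 2-fold was 38.9%, but 60.5% with detection on 1 array enough, 67.3% without scaling and 57.8% in the authors' table.

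With 1 array per group, genes were counted at a log2 ratio of at least 1 in size, with no test; the counting was tested on simulated data. The number of arrays limits the precision. All members are accounted for; from each companion list up to 4 measured genes with the largest absolute ratio and 12 set genes were named, of which 1 is not reported here, and single markers were named after their values were seen. The members and lists were chosen with earlier results of these data known. Alternatives were other scalings, a normexp correction (offset 50, on spot medians, the means not being in these files), other filters and probe rules, and the authors' values. The normexp correction was followed by quantile normalization, so it shares that step with the setting of quantile normalization alone. Tools were limma 3.58.1 in R 4.3.3, and pandas 2.3.3, numpy 2.4.6 and matplotlib 3.10.9 in Python 3.11.15.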

Additional observations from a re-analysis of the deposited data

How the results depend on the processing

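Of the 11 glutathione genes past 2-fold, 8 kept the call under every setting that gave them a value and all 11 kept their sign. Gstp1, Mgst2 and Gpx1 came within 2-fold with quantile normalization, cyclic loess, normexp and no scaling, and Gstp1 also with its probes averaged. The number of higher genes was 2 with the median over every probe, with detection on 1 array enough, with no detection filter and in the authors' deposited table, and 1 elsewhere; the second gene was Ggt1, whose control signal was not well above background. The number of lower genes ran from 7 to 12. The members' median log2 ratio of -0.65 became -0.24 with no scaling between arrays, an alternative chosen after seeing the data, and -1.35 over the 9 genes of the authors' deposited table, which lists only probes past 2-fold. Keeping spots marked as non-uniform added Gsta2 to the lower genes. No paired analysis was possible because each group has 1 array. Genes near background, such as Gclm, Slc7a11, Ggt1 and Ggt5, have signals too low for a fold here, except as a bound.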

Other observations

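NADPH supply and the regulators of NRF2 were described beside the glutathione genes. Of 8 measured NADPH genes of a list of 10, 1 was at least 2-fold lower (background 17.7%) and none higher (background 11.2%). These counts are not far from the background, and 0 to 2 were lower over the scalings. The median of the 8 was -0.50. Idh1, the cytosolic isocitrate dehydrogenase, gave 5697 units on the control and 3635 on the senecionine array (log2 ratio -1.06 ± 0.20). Nnt, the transhydrogenase of mitochondria, gave 6068 and 4050 units (-0.99 ± 0.20), Idh2 4740 and 3464 units (-0.86 ± 0.20) and Pgls 2925 and 2338 units (-0.73 ± 0.20).

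Nfe2l2, the gene of NRF2 itself, gave 2496 units on the control and 2655 on the senecionine array (-0.32 ± 0.20), and Keap1, the adaptor that leads NRF2 to degradation, 71.7 and 85.6 units (-0.15 ± 0.23). Among 5 measured regulators, 1 passed 2-fold, on the higher side (background 11.2%). It was Cul3, the ligase scaffold that works with Keap1, with 533 and 1722 units (1.28 ± 0.20), but its other probe gave 0.46. The median of the 5 was -0.15 and turns to 0.08 with normexp and to 0.26 without scaling. Mafg gave 257 and 548 units (0.69 ± 0.21) and Sqstm1 12710 and 12760 units (-0.40 ± 0.20). The small Maf genes Mafk and Maff, and Bach1, a repressor of NRF2 targets, were detected by the senecionine array alone, as were 19.1% of all genes. Their approximate bounds were 3.78-fold higher for Mafk, 1.73-fold for Bach1 and 1.14-fold for Maff. These 3 were named after their values were seen.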
